A study of Caenorhabditis elegans with 12 samples.

Results

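The nuclear-encoded genes of the mitochondrial respiratory chain were examined in whole Caenorhabditis elegans exposed to AO168=O, an oxidized phosphite antioxidant of plastics. Members were protein-coding genes whose deposited name began with nuo, nduf, sdha, sdhb, sdhd, ucr, cox, cco or atp and a number, together with gas-1, lpd-5, mev-1, cyc-1 and isp-1. The rule used names alone and found 46 genes among 46987 features of the count table, of which 19985 were protein-coding. They comprised 14 genes of complex I, 5 of complex II, 7 of complex III, 7 subunits of complex IV, 8 assembly factors of complex IV and 5 genes of ATP synthase. Genes of the same complexes that carry other names, such as asb-1, were outside the rule and are described at the end.

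The worms were of the wild-type strain Bristol N2 and were collected at the L4 larval stage after about 46 h on the compound, starting as embryos. The 4 groups were a control without AO168=O and agar with 400, 2000 or 10000 ng/g, with 3 libraries each. All 4 groups, the control included, received 0.01% ethanol, fed on Escherichia coli OP50 and grew at 25 °C. Each library was made from polyadenylated RNA of about 1000 pooled worms, so it averages over tissues and individuals, and all 12 belonged to batch 1. The series calls the 3 libraries of a group independent biological replicates, without saying how cultures or plates were separated, and p-values measure the spread between these samples. In whole worms, fewer cells of a type and less RNA per cell cannot be told apart.

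The respiratory chain passes electrons from NADH and succinate to oxygen and pumps protons across the inner mitochondrial membrane, and ATP synthase uses the returning protons to make ATP. Complex I (NADH dehydrogenase) and complex II (succinate dehydrogenase) feed ubiquinone, complex III (cytochrome bc1) passes the electrons to cytochrome c, and complex IV (cytochrome c oxidase) reduces oxygen. Most subunits are encoded in the nucleus and imported, and a small set is encoded in mitochondrial DNA. In C. elegans the chain is well known from mutants: partial loss of isp-1 or nuo-6 lengthens life, whereas mutants of mev-1 and gas-1 are sensitive to oxygen.

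The libraries held between 36897811 counts (lowest, at 10000 ng/g) and 47211800 counts (highest, at 400 ng/g). The 46 genes together took 1.78 ± 0.155% of the counts in control libraries (SD, n = 3 in every group). Their share was 1.87 ± 0.184% at 400 ng/g, 1.86 ± 0.043% at 2000 ng/g and 1.84 ± 0.023% at 10000 ng/g. These shares differed between groups by less than the spread within the control or the 400 ng/g group. Markers of body wall muscle (14 of 14), intestine (11 of 11), neurons (13 of 13) and epidermis (11 of 11) all passed the low-count filter, as did 18 of 18 germ line markers.

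The chain was expressed at very different levels from complex to complex. Levels between genes were compared as FPKM, the deposited unit per gene length, in the control. ATP synthase genes were highest, from 561 FPKM for atp-4 (coupling factor 6) to 1679 FPKM for atp-2 (the catalytic beta subunit), with a median of 1002 FPKM. Subunits of complex IV followed, from 448 FPKM for cox-5B to 893 FPKM for cox-5A, with a median of 651 FPKM. Complex III had a median of 273 FPKM, complex II of 217 FPKM and complex I of 182 FPKM, against 9.17 FPKM for the 15809 protein-coding genes tested. The highest genes of these complexes were isp-1, the Rieske iron-sulfur protein, at 659 FPKM, sdhb-1, the iron-sulfur subunit, at 285 FPKM, and nuo-1, the flavoprotein that binds NADH, at 329 FPKM.

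Assembly factors of complex IV, which help to build the enzyme, were expressed far below its subunits. Their median was 14.5 FPKM, and the highest was cox-15, for heme A synthase, at 44.8 FPKM, below every one of the 7 subunits. Among the genes named for structural subunits, 4 lay below 100 FPKM in the control. They were nduf-2.2 at 46.0 ± 2.53 FPKM, sdha-2 at 44.1 ± 1.64 FPKM, ucr-2.3 at 67.8 ± 6.31 FPKM (SD, n = 3) and nuo-3.

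The complex I gene nuo-3 had 36 counts in all 12 libraries together, from 0 to 6 per library, and the complex IV assembly gene cox-14 had 9, from 0 to 3. Both were removed by the low-count filter, which left 44 of the 46 genes for testing. In the annotation nuo-3 shared 72.6% of its exonic bases with Y57G11C.1147 on the same strand, and cox-14 shared 75.7% with Y70G10A.4, and both neighbours had 0 counts in every library. The assembly gene cox-16 shared 61.6% of its exonic bases with C24G6.8 and had 114 to 163 counts per library, against 1368 to 1860 for C24G6.8. How reads over such shared bases were assigned is not given in the sources used here, so the counts of these 3 genes are uncertain. The other 43 genes shared under 20% of their exonic bases with a gene on the same strand.

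**Figure D1:**
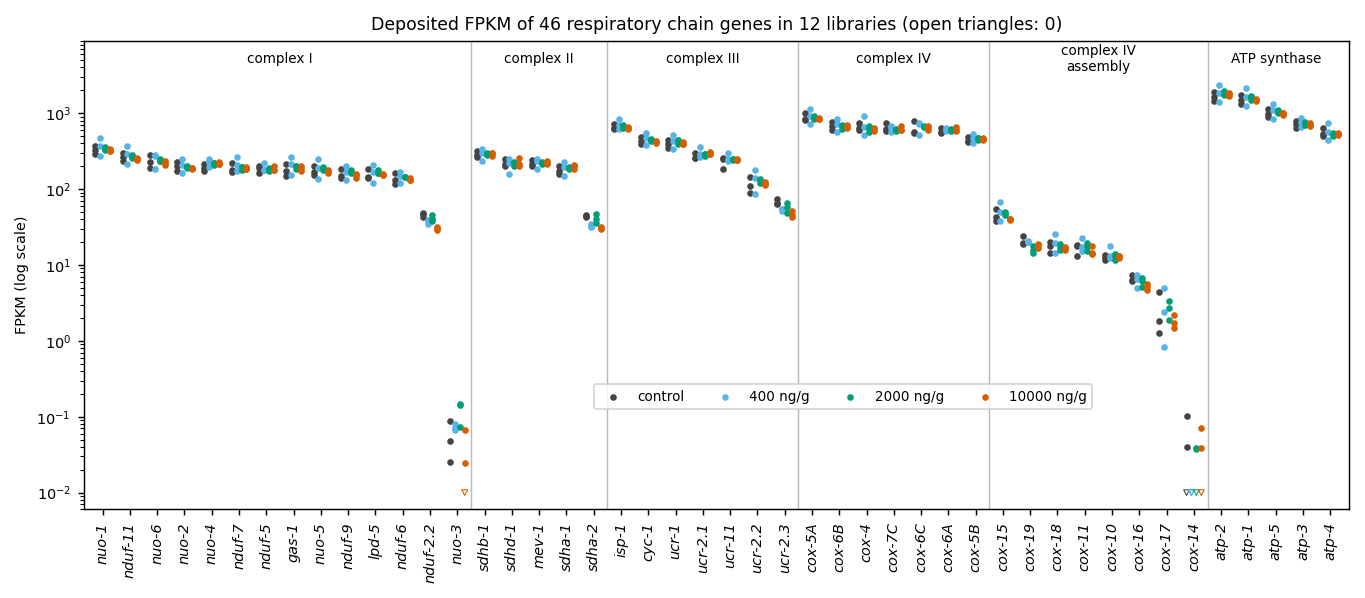
Deposited FPKM (log axis) of the 46 respiratory chain genes in each of the 12 libraries, grouped by complex and ordered by the control mean, with 1 point per library and colours for the control and the 3 doses. ATP synthase and complex IV subunits lie highest, the complex IV assembly factors lie low, and nduf-2.2, sdha-2 and ucr-2.3 stand below the other subunit genes of their complexes apart from nuo-3.

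The genes lay unevenly over the chromosomes. Chromosome I held 15 of the 46 (32.6%), against 14.4% of all protein-coding genes, and chromosome III held 12 (26.1%), against 13.2%. Chromosome V held 4 (8.70%), against 25.0%. These shares are descriptions of the annotation and carry no test.

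Over the 12 libraries most of the 44 genes moved together. Relative to the control mean, their mean log2 CPM ran from -0.15 to 0.20 in the control and from -0.25 to 0.35 at 400 ng/g, against -0.04 to 0.05 at 2000 ng/g and -0.08 to -0.02 at 10000 ng/g, so most of the movement lay in the control and at 400 ng/g. The Pearson correlation of each gene's log2 CPM (counts scaled to library size) with the mean of the other 43 over 12 libraries had a median of 0.94, and 33 genes lay above 0.8. It was highest for atp-5 (subunit d of ATP synthase) at 0.987, cyc-1 (cytochrome c1) at 0.986 and atp-1 (the alpha subunit) at 0.985. It was lowest for ucr-2.3 at -0.06, sdha-2 at 0.07 and nduf-2.2 at 0.10. The libraries share their depth scaling and group structure, so these values describe the 12 libraries.

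Replicates 1 and 2 at 400 ng/g stood at the opposite ends of this shared movement. Replicate 2 was the highest of the 12 libraries for 35 of the 44 genes (79.5%), against 21.95% of all genes tested, and replicate 1 was the lowest for 26 (59.1%), against 15.1%. Relative to the control mean, the mean log2 CPM of the 44 genes was -0.25 in replicate 1, 0.35 in replicate 2 and 0.07 in replicate 3. Several of the other gene lists set beside them were, within the 400 ng/g group, lowest and highest in the same replicates, and several were not. In the order of replicates 1, 2 and 3, body wall muscle markers lay at -0.50, 0.47 and 0.21, and pyruvate dehydrogenase and citric acid cycle genes at -0.19, 0.34 and 0.07. In that order cytosolic ribosomal protein genes lay at -0.19, 0.32 and 0.03, mitochondrial ribosomal protein genes at -0.13, 0.49 and 0.09, intestine markers at -0.35, 0.13 and 0.02, and epidermis markers at -0.29, 0.08 and 0.04. Neuron markers, at 0.35, 0.36 and 0.22, and germ line markers, at -0.50, -0.58 and -0.45, did not follow this order. Protein genes of the mitochondrial genome, at 0.15, 0.20 and 0.25, did not follow it either. The same held for adenine nucleotide carriers, at 0.03, -0.30 and -0.38, and further assembly factors of respiratory complexes, at 0.21, 0.32 and 0.01. Sperm, oocyte and adult cuticle markers also departed from it. The part of tissue content in the movement was not tested.

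The movement can be seen in single genes. The beta subunit gene atp-2 had 3710, 3211 and 2858 CPM in the control, 2736, 4664 and 3532 CPM at 400 ng/g, 3778, 3676 and 3351 CPM at 2000 ng/g, and 3537, 3288 and 3408 CPM at 10000 ng/g. All 4 groups overlapped, and the highest and the lowest library were both at 400 ng/g. Within groups, the median SD of the 44 genes on the log2 scale was 0.177 in the control, 0.313 at 400 ng/g, 0.0642 at 2000 ng/g and 0.0538 at 10000 ng/g. Over all genes tested the corresponding medians were 0.229, 0.316, 0.181 and 0.152, so the spread was smaller at the higher doses for the chain and for genes in general.

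**Figure D2:**
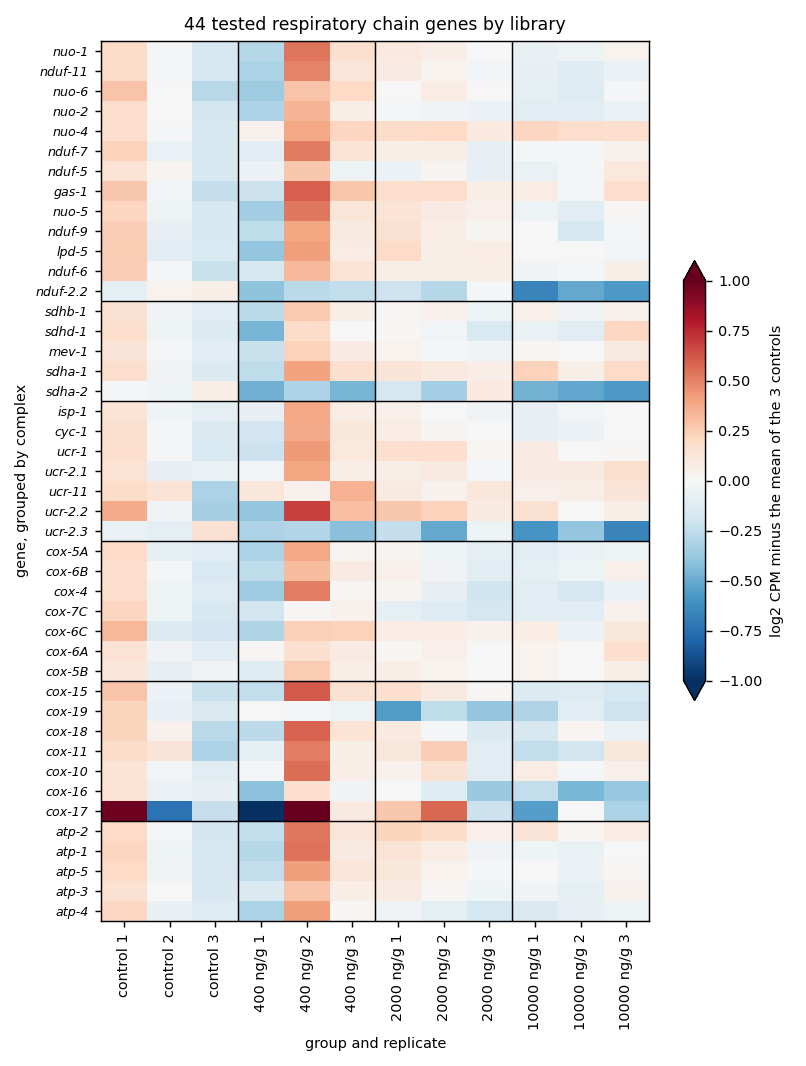
Log2 CPM minus the mean of the 3 controls for the 44 tested genes (rows, grouped by complex) in the 12 libraries (columns), with red above and blue below the control mean and colours saturated at 1 and -1. Most rows are blue in replicate 1 and red in replicate 2 at 400 ng/g, while the rows of nduf-2.2, sdha-2 and ucr-2.3 are blue in all 3 libraries at 400 and at 10000 ng/g.

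At 10000 ng/g, 1 of the 44 genes fell and 0 rose (edgeR quasi-likelihood test, adjusted p under 0.05). Of all 16665 genes tested 0.252% were called, 0.21% as higher and 0.042% as lower. The gene that fell was nduf-2.2 (WBGene00006463, chromosome III, 6465222 to 6467206), a gene of complex I. It had 43.6, 48.2 and 46.3 CPM at 10000 ng/g, against 64.4, 70.7 and 71.8 CPM in the control. Every library at 10000 ng/g lay below every control library, as was the case for 18.3% of all genes tested. The log2 fold change was -0.58 ± 0.0974 (SE), with an edgeR adjusted p of 0.0404. The call was lost in 9 of the 12 fits that each left out 1 library, with edgeR adjusted p from 0.0176 to 0.218, and it was kept without replicate 1 or 2 at 400 ng/g or replicate 3 at 2000 ng/g. The log2 fold change in those fits ran from -0.62 to -0.54. The call was also lost with the replicate number as a block (edgeR adjusted p = 0.0824).

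The lower-expressed copies of a subunit in complexes II and III had differences of the same size at 10000 ng/g, without passing the threshold. The gene sdha-2 (WBGene00016392, chromosome I, 10683270 to 10685587), for a flavoprotein subunit of succinate dehydrogenase, had 65.2, 62.9 and 60.7 CPM at 10000 ng/g, against 89.0, 87.7 and 94.6 CPM in the control. Its log2 fold change was -0.52 ± 0.111 (SE), with an edgeR adjusted p of 0.0810. The gene ucr-2.3 (WBGene00020757, chromosome III, 879860 to 881458), for a core protein of complex III, had 60.9, 70.4 and 58.2 CPM at 10000 ng/g, against 88.0, 86.2 and 102 CPM in the control. Its log2 fold change was -0.55 ± 0.127 (SE), with an edgeR adjusted p of 0.0934. For both genes the 2 groups did not overlap, as was the case for 18.3% of all genes tested in this direction. At an unadjusted p under 0.05 there were 3 genes of the chain (6.82%), nduf-2.2, sdha-2 and ucr-2.3, against 20.6% of all genes tested. All 3 passed with DESeq2, which called 6.25% of all genes it tested, with an adjusted p of 0.0033 for sdha-2 and 0.0081 for ucr-2.3. All 3 also passed in an edgeR fit of only the control and 10000 ng/g, where 2.45% of all genes passed. Without replicate 1 at 400 ng/g, where 3.26% of all genes passed, the edgeR adjusted p was 0.0302 for sdha-2 and 0.0394 for ucr-2.3.

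The related genes of these complexes that were expressed at higher levels did not show this difference. The gene gas-1 (WBGene00001520, chromosome X, 15586786 to 15590397), of complex I, had 316, 295 and 339 CPM at 10000 ng/g, against 361, 294 and 255 CPM in the control, and the groups overlapped. Its log2 fold change was 0.06 ± 0.183 (SE), with an edgeR adjusted p of 0.868. The gene sdha-1 (WBGene00015391, chromosome X, 8542757 to 8546021) had 496, 442 and 484 CPM at 10000 ng/g, against 479, 414 and 383 CPM in the control. Its log2 fold change was 0.16 ± 0.151 (SE), with an edgeR adjusted p of 0.568. These groups overlapped as well.

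Complex III has 3 core genes of the ucr-2 family, and the low one of the family was again the one with a negative difference. The gene ucr-2.1 (WBGene00012158, chromosome X, 12018429 to 12021206) had 415, 416 and 439 CPM at 10000 ng/g, against 434, 371 and 374 CPM in the control. The gene ucr-2.2 (WBGene00011679, chromosome X, 15173904 to 15178145) had 180.3, 162 and 169 CPM at 10000 ng/g, against 209, 158 and 128.7 CPM in the control. Both genes overlapped between groups, with log2 fold changes of 0.11 ± 0.122 and 0.04 ± 0.23 (SE) and edgeR adjusted p of 0.634 and 0.931. All 4 of these higher-expressed genes lie on chromosome X, while nduf-2.2, sdha-2 and ucr-2.3 lie on autosomes. How reads that match several copies were counted is not stated, so some reads of one copy may stand under another.

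Expressed as a share of the higher copy, the lower copy was smaller at 10000 ng/g in all 3 pairs. The FPKM of nduf-2.2 was 15.6%, 18.5% and 15.5% of that of gas-1 at 10000 ng/g, against 20.2%, 27.2% and 31.9% in the control. The FPKM of sdha-2 was 15.5%, 16.8% and 14.8% of that of sdha-1 at 10000 ng/g, against 21.9%, 25.0% and 29.1% in the control. The FPKM of ucr-2.3 was 15.6%, 17.9% and 14.04% of that of ucr-2.1 at 10000 ng/g, against 21.5%, 24.7% and 29.0% in the control. In each pair the groups did not overlap, and the log2 ratio differed by -0.66, -0.68 and -0.66. How often ratios of other gene pairs do the same was not examined. Each had an exact two-sided permutation p of 0.1, the smallest that 3 libraries against 3 allow, among 12 such tests over 4 ratios and 3 doses. The share of ucr-2.2 in ucr-2.1 was 43.3%, 38.8% and 38.4% at 10000 ng/g, against 48.0%, 42.6% and 34.3% in the control (exact permutation p = 1). At 400 ng/g the log2 ratio to the higher copy differed from the control by -0.53 for nduf-2.2, -0.52 for sdha-2 and -0.49 for ucr-2.3 (exact permutation p = 0.2, 0.1 and 0.1). The nduf-2.2 share overlapped the control there, at 22.8%, 14.2% and 18.04%. At 2000 ng/g all 3 pairs overlapped the control, with differences of -0.31, -0.24 and -0.31 (exact permutation p = 0.2, 0.3 and 0.2). The choice of these pairs was made with the differences of their lower copies known.

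**Figure D3:**
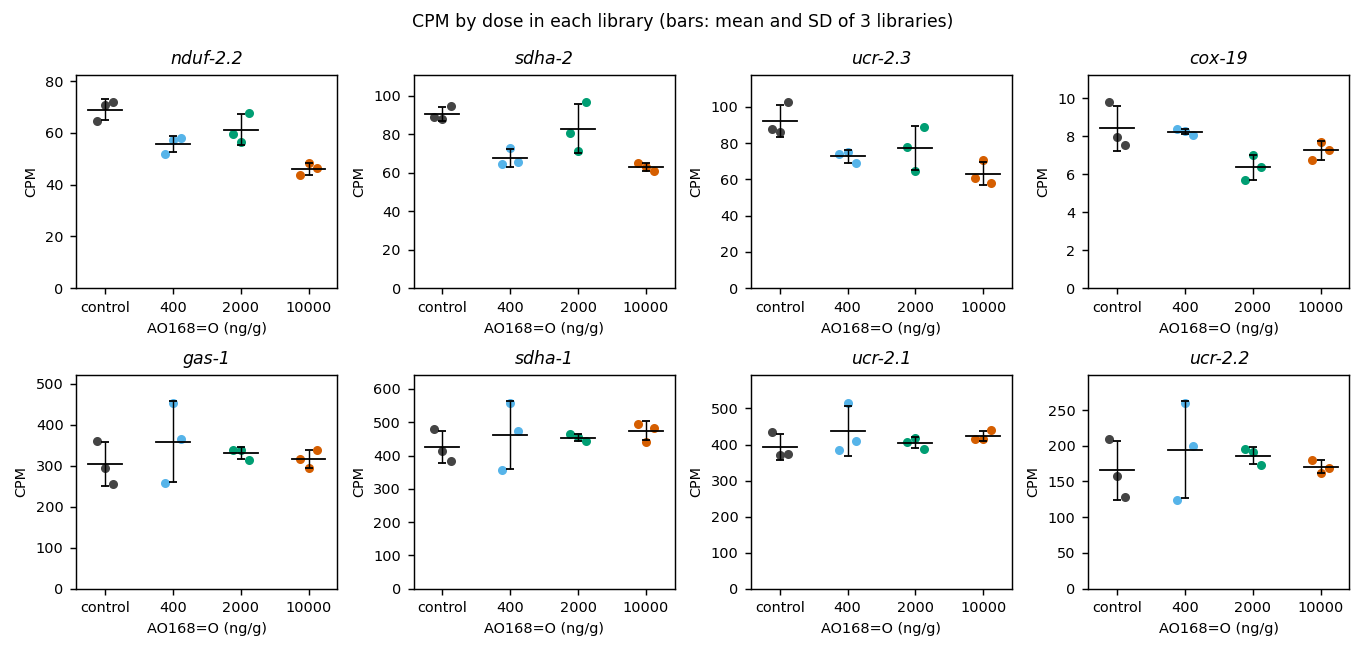
CPM by dose of AO168=O in each library (points), with the mean and SD of 3 libraries (bars), for nduf-2.2, sdha-2, ucr-2.3 and cox-19 in the upper row and gas-1, sdha-1, ucr-2.1 and ucr-2.2 in the lower row; every axis starts at 0. In the first 3 upper panels the points at 400 and 10000 ng/g all lie below the control points, and in the lower panels all groups overlap the control.

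The mean levels of the lower copies also lay below the control at 400 ng/g and less so at 2000 ng/g, so these means did not follow the order of the doses. The groups at 400 and 2000 ng/g were not compared by a test, and their libraries overlapped for each of the 3 genes. In the order control, 400, 2000 and 10000 ng/g, nduf-2.2 averaged 68.9 ± 3.97, 55.7 ± 3.23, 61.3 ± 5.86 and 46.0 ± 2.32 CPM (SD, n = 3 each). In the same order sdha-2 averaged 90.4 ± 3.63, 67.7 ± 4.48, 82.8 ± 12.7 and 62.9 ± 2.26 CPM, and ucr-2.3 averaged 92.2 ± 8.88, 72.6 ± 3.34, 77.1 ± 12.12 and 63.2 ± 6.43 CPM. At 2000 ng/g replicate 3 stood nearest the control, at 67.8 CPM for nduf-2.2, 96.5 CPM for sdha-2 and 88.8 CPM for ucr-2.3.

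Germ line markers stood low in the same libraries. Relative to the control mean, the mean log2 CPM of the 18 markers was -0.42, -0.34 and -0.63 at 10000 ng/g, against -0.17, -0.06 and 0.22 in the control. At 400 ng/g it was -0.50, -0.58 and -0.45, and at 2000 ng/g it was -0.32 and -0.44 in replicates 1 and 2 and 0.06 in replicate 3, the same replicate in which the lower copies stood near the control. Over the 12 libraries the Pearson correlation with this marker mean was 0.875 for sdha-2, 0.869 for ucr-2.3 and 0.786 for nduf-2.2. For the other 41 genes it ran from -0.74 to 0.09, with a median of -0.34. With the body wall muscle mean, those 41 genes had a median correlation of 0.855, and sdha-2, nduf-2.2 and ucr-2.3 lay at 0.14, 0.13 and -0.10. Correlations were computed with these 2 marker means only. The 3 lower copies were set apart with their low levels at 400 and 10000 ng/g known, and the germ line mean also stood low there. Group differences therefore enter these correlations, which describe the 12 libraries and test no relation. At 2000 ng/g the means of major sperm protein genes, oocyte and eggshell markers and adult cuticle markers were also nearest the control in replicate 3, at -0.24, 0.17 and 0.08.

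Of the 18 germ line markers, 17 had a negative log2 fold change at 10000 ng/g, with a median of -0.45, against 8548 of all 16665 genes tested. In this list 11 genes had an unadjusted p under 0.05 and DESeq2 called 7. The edgeR test called 1, iff-1, for a translation factor, which fell (-0.65 ± 0.113 (SE), edgeR adjusted p = 0.0476). Of all genes tested edgeR called 0.042% as lower. Major sperm protein genes (29 of 31 tested, all negative, median -1.33), oocyte and eggshell markers (18 of 20 negative, median -0.67) and adult cuticle markers (9 of 9 negative, median -1.24) stood low at 10000 ng/g as well. The library means of the adult cuticle markers overlapped, at -1.38, -0.43 and -1.95 at 10000 ng/g, against -0.81, -0.24 and 1.05 in the control. In the sperm, oocyte and adult cuticle lists edgeR called 0 genes, with 27, 15 and 5 at an unadjusted p under 0.05 and 9, 3 and 0 called by DESeq2. Over all genes 20.6% had an unadjusted p under 0.05 at this dose, and DESeq2 called 6.25% of those it tested. Neuron markers stood high, with 12 of 13 positive and a median of 0.33 (edgeR called 0, with 8 at an unadjusted p under 0.05 and 6 called by DESeq2). Medians were -0.03 for body wall muscle, 0.15 for intestine and 0.01 for epidermis markers. The part of germ line content, stage or tissue content in the differences of the lower copies was not tested.

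**Figure D4:**
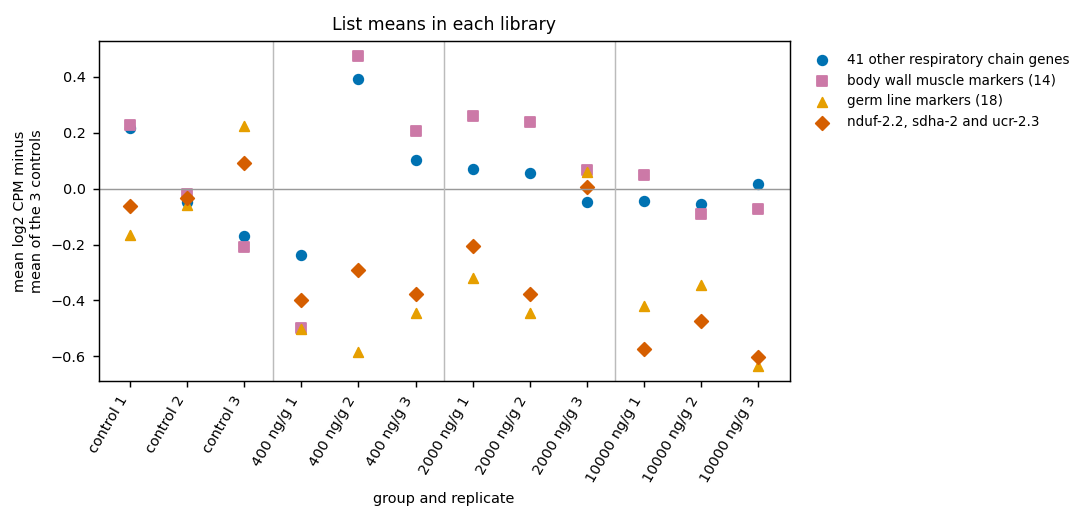
Mean log2 CPM minus the mean of the 3 controls in each of the 12 libraries for nduf-2.2, sdha-2 and ucr-2.3 (diamonds), the other 41 tested respiratory chain genes (circles), 14 body wall muscle markers (squares) and 18 germ line markers (triangles). The circles stand at -0.24 in replicate 1 and 0.39 in replicate 2 at 400 ng/g, beside the squares at -0.50 and 0.47, while the diamonds and triangles lie below 0 in all libraries at 400 and 10000 ng/g.

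Apart from the 3 lower copies, the chain at 10000 ng/g lay close to the control. The log2 fold changes of the other 41 genes ran from -0.48 to 0.18 with a median of -0.03, against -0.01 for all genes tested, and 25 were negative and 16 positive. Of all 44 genes, 39 (88.6%) had a log2 fold change under 0.25 in size, against 49.1% of all genes tested. The SE of the 44 fold changes had a median of 0.151, against 0.211 for all genes tested. The part of this smaller SE in the share of fold changes under 0.25 was not tested. The SE reached 0.614 for cox-17, a copper chaperone with 14 to 55 counts per library that was named after its values were seen. Differences well above the median SE of the 44 could go uncalled, as sdha-2 at -0.52 ± 0.111 and ucr-2.3 at -0.55 ± 0.127 (SE) did not pass the edgeR threshold. The closeness to the control therefore describes the estimates and does not exclude differences of that size. All 3 libraries at 10000 ng/g lay below the control for 4 genes, against 18.3% of all genes tested, and above it for 0 genes, against 16% of all genes tested.

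In complex I, 10 of the 13 tested genes had a negative log2 fold change at 10000 ng/g, with a median of -0.04. The most positive of the whole chain was nuo-4, for the NDUFA10 subunit, at 0.18 ± 0.115 (SE) with an edgeR adjusted p of 0.391. It had 367, 357 and 355 CPM at 10000 ng/g, against 356, 314 and 283 CPM in the control, and the groups overlapped in 1 library of each group. The accessory subunit gene nuo-6 had 142, 138 and 149.99 CPM at 10000 ng/g, against 185, 151 and 125 CPM in the control. Its log2 fold change was -0.10 ± 0.168 (SE), with an edgeR adjusted p of 0.769 and overlapping groups.

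Complexes II and III were as close to the control in their single-copy genes. The cytochrome b subunit gene of complex II, mev-1, had 161, 159 and 169 CPM at 10000 ng/g, against 174, 156 and 147 CPM in the control (log2 fold change 0.03 ± 0.116 (SE), edgeR adjusted p = 0.891). The Rieske protein gene isp-1 had 617, 640.2 and 649 CPM at 10000 ng/g, against 718, 632 and 612 CPM in the control (log2 fold change -0.04 ± 0.126 (SE), edgeR adjusted p = 0.874). The cytochrome c1 gene cyc-1 had 596, 605 and 631 CPM at 10000 ng/g, against 704, 624 and 572 CPM in the control (log2 fold change -0.05 ± 0.139 (SE), edgeR adjusted p = 0.854). In all 3 genes the libraries at 10000 ng/g lay inside the range of the control libraries.

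The 7 complex IV subunits had log2 fold changes from -0.11 to 0.07 at 10000 ng/g with a median of -0.03, and the 5 ATP synthase genes from -0.10 to 0.07 with a median of -0.03. In both groups 0 genes had all 3 libraries on one side of the control. Of the 7 tested assembly factors of complex IV, 6 were negative, with a median of -0.16. In complex IV, its assembly factors and ATP synthase 0 genes passed with edgeR or DESeq2, and 0 had an unadjusted p under 0.05. The assembly gene cox-16 had 3.34, 2.87 and 3.04 CPM at 10000 ng/g, against 4.40, 3.79 and 3.76 CPM in the control. These groups did not overlap, as was the case for 18.3% of all genes tested in this direction. The log2 fold change of -0.37 ± 0.198 (SE) had an edgeR adjusted p of 0.308, at 114 to 163 counts per library and with the shared exons described above.

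**Figure D5:**
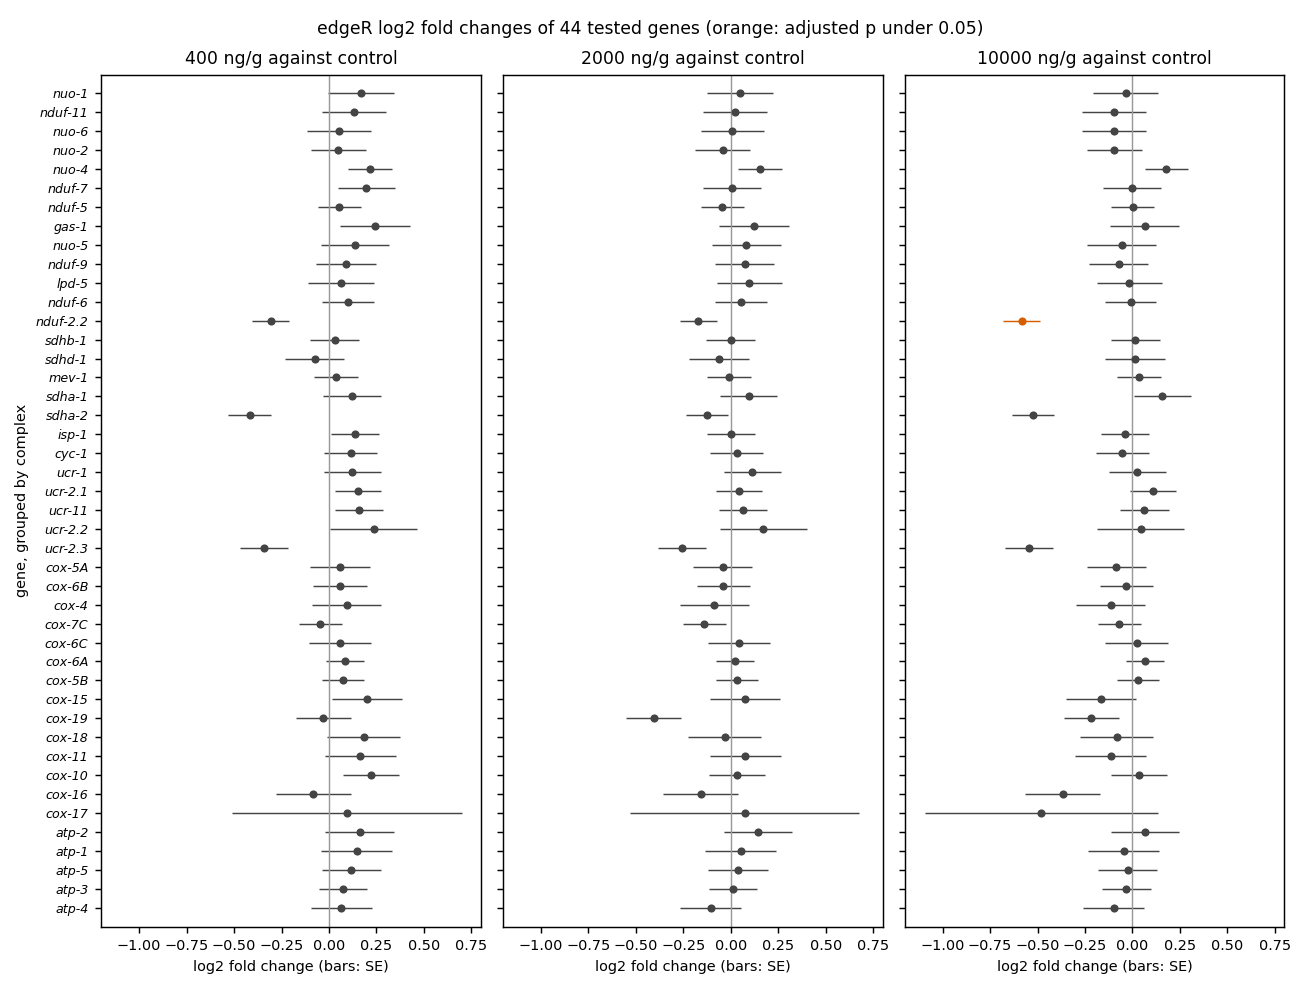
Log2 fold change against the control (points) with its SE (bars) from the edgeR fit for the 44 tested genes, grouped by complex, in the order 400, 2000 and 10000 ng/g; an orange point has an adjusted p under 0.05. The orange point is nduf-2.2 at 10000 ng/g, at -0.58, and sdha-2 and ucr-2.3 are the points next to it in size with narrow bars.

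At 400 ng/g, 0 of the 44 genes passed the edgeR threshold, as did 0 of the 16665 genes tested (0%). At an unadjusted p under 0.05 there were 3 genes (6.82%), all lower, against 18.5% of all genes tested. DESeq2 called 1, sdha-2, against 9.15% of all genes it tested, and edgeR called the same gene without replicate 3 at 2000 ng/g, where 5.43% of all genes passed. The 3 genes were the lower copies again. At 400 ng/g nduf-2.2 had 52.0, 57.1 and 58.03 CPM, sdha-2 had 64.7, 72.8 and 65.5 CPM, and ucr-2.3 had 74.1, 75.001 and 68.8 CPM, below every control library given above. The log2 fold changes were -0.31 ± 0.0971, -0.42 ± 0.111 and -0.34 ± 0.127 (SE), with edgeR adjusted p of 0.0992, 0.0644 and 0.158. These 3 were also the genes with all 3 libraries below the control, against 12.2% of all genes tested.

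The other genes of the chain had mostly small positive values at 400 ng/g that rested on single libraries. Log2 fold changes were positive in 37 of these 41 genes, against 9494 of all 16665 genes tested. Their median was 0.10, against 0.05 for all genes tested. Over all 44 genes of the chain the median was 0.09. Without replicate 2 the median of the 44 was -0.04, and without replicate 1 it was 0.23. The most positive was gas-1, with 258, 454 and 364 CPM at 400 ng/g, against the control values given above (log2 fold change 0.24 ± 0.183 (SE), edgeR adjusted p = 0.544). All 5 ATP synthase genes were positive, from 0.07 to 0.16, and 0 genes of the chain had all 3 libraries above the control, against 8.19% of all genes tested.

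At 2000 ng/g, 0 of the 44 genes passed, as did 0 of all 16665 genes (0%), and DESeq2 called 0 of the chain and 0.0201% of all genes it tested. At an unadjusted p under 0.05 there was 1 gene (2.27%), against 5.15% of all genes tested. It was cox-19, for an assembly factor of complex IV that acts in copper handling, which had 5.67, 7.004 and 6.37 CPM at 2000 ng/g, against 9.77, 7.93 and 7.54 CPM in the control. These groups did not overlap, as was the case for 5.47% of all genes in this direction. The log2 fold change was -0.41 ± 0.145 (SE), with an edgeR adjusted p of 0.855. At 400 and 10000 ng/g the log2 fold changes of cox-19 were -0.03 ± 0.144 and -0.22 ± 0.145 (SE), with edgeR adjusted p of 0.943 and 0.408. The median over the 44 genes at 2000 ng/g was 0.03, against -0.02 for all genes. Of the 44, 42 (95.5%) lay under 0.25 in size, against 65.2% of all genes tested. The median SE was 0.151 for the 44 and 0.211 for all genes tested.

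Between 10000 and 400 ng/g, 0 of the 44 genes passed, against 0.096% of all genes tested, and DESeq2 called 0, against 0.812% of all genes it tested. An unadjusted p under 0.05 was found for 1 gene, nduf-2.2, against 9.5% of all genes tested. Of the 44 genes 42 were lower at 10000 ng/g than at 400 ng/g, with a median log2 fold change of -0.15, against -0.01 for all genes tested. Most of the 44 moved together, so they are not independent counts, and replicate 2 at 400 ng/g was the highest library for 35 of them. The median at 400 ng/g against the control was -0.04 without that library and 0.23 without replicate 1 at 400 ng/g. At 10000 ng/g against the control it was -0.03 with all libraries. The genes nduf-2.2 and cox-19 were lower in all 3 libraries at 10000 ng/g than in any at 400 ng/g, against 6.32% of all genes tested. For nduf-2.2 this was a log2 fold change of -0.27 ± 0.0972 (SE), with an edgeR adjusted p of 0.461. In the joint test of any of the 3 doses against the control 0 of the 44 genes passed, against 0.084% of all genes tested. The edgeR adjusted p in that test was 0.146 for nduf-2.2, 0.146 for sdha-2 and 0.159 for ucr-2.3, and DESeq2 called these 3 genes and 9.3% of all genes it tested. Without replicate 1 at 400 ng/g edgeR called 1, nduf-2.2, against 1.12% of all genes.

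Related genes outside the naming rule gave 1 further call at 10000 ng/g, where edgeR called 0.252% of all genes tested. At this dose 20.6% of all genes tested had an unadjusted p under 0.05, and DESeq2 called 6.25% of all genes it tested. Of 11 other ATP synthase subunits and regulators, asb-1, for a subunit b of ATP synthase, fell, with 93.2 ± 4.22 CPM at 10000 ng/g, against 140.2 ± 4.66 CPM in the control (SD, n = 3 each). Its log2 fold change was -0.59 ± 0.0953 (SE), with an edgeR adjusted p of 0.0399. The other 10 genes of that list did not pass, and its median was -0.06. At an unadjusted p under 0.05 the list had 2 lower genes and 1 higher, mai-1, an ATPase inhibitor gene, with 46.2 ± 5.85 CPM at 10000 ng/g, against 36.3 ± 1.96 CPM in the control (edgeR adjusted p = 0.157). Of the 4 genes for adenine nucleotide carriers, which exchange ADP for ATP across the inner membrane, 0 passed with edgeR, with 2 at an unadjusted p under 0.05 and 2 called by DESeq2. Among them ant-1.4 had 26.4 ± 4.87 CPM at 10000 ng/g, against 57.6 ± 8.23 CPM in the control (log2 fold change -1.12 ± 0.211 (SE), edgeR adjusted p = 0.0620). The carrier gene ant-1.3 had 37.6 ± 7.30 CPM at 10000 ng/g, against 70.2 ± 16.4 CPM in the control (edgeR adjusted p = 0.122). The other 2 carriers had positive values. For ant-1.1, the most abundant of the 4, the log2 fold change was 0.09 ± 0.126 (SE), and for ant-1.2 it was 1.89 ± 1.198 (SE), at no more than 0.298 CPM in any library of the 2 groups (edgeR adjusted p = 0.701 and 0.383).

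In the list of cytochrome c and ubiquinone synthesis genes 0 of 10 passed with edgeR and 0 with DESeq2, with 2 at an unadjusted p under 0.05 and a median of -0.05. The counts of this paragraph stand beside 20.6% of all genes at an unadjusted p under 0.05 and 6.25% called by DESeq2. The cytochrome c gene cyc-2.2 had 7.97 ± 1.80 CPM at 10000 ng/g, against 15.4 ± 4.03 CPM in the control (edgeR adjusted p = 0.183). The ubiquinone synthesis gene coq-1 had 40.2 ± 0.964 CPM at 10000 ng/g, against 33.5 ± 2.05 CPM in the control (edgeR adjusted p = 0.171). Among 18 genes of pyruvate dehydrogenase and the citric acid cycle 0 passed with edgeR and 1 with DESeq2, with 3 at an unadjusted p under 0.05 and a median of 0.05. There sucg-1, for a beta subunit of succinyl-CoA ligase, had 45.1 ± 1.41 CPM at 10000 ng/g, against 67.5 ± 7.27 CPM in the control (edgeR adjusted p = 0.136). The gene idhg-2, for a subunit of isocitrate dehydrogenase, had 105.8 ± 8.16 CPM at 10000 ng/g, against 81.5 ± 7.59 CPM in the control (edgeR adjusted p = 0.143). Of the 3 genes at an unadjusted p under 0.05 in this list, 2 were lower and 1 was higher. Of 5 further assembly factors of respiratory complexes 0 passed with edgeR or DESeq2 and 0 had an unadjusted p under 0.05, with a median of -0.08.

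Genes of mitochondrial DNA and of mitochondrial translation and stress gave no edgeR call at 10000 ng/g. The 11 tested protein genes of the mitochondrial genome had a median log2 fold change of 0.17 at 400 ng/g, -0.12 at 2000 ng/g and -0.01 at 10000 ng/g, with 0 called by edgeR or DESeq2 at each dose and 2, 1 and 0 at an unadjusted p under 0.05. In the same order, 18.5%, 5.15% and 20.6% of all genes tested had an unadjusted p under 0.05. The counts come from polyadenylated RNA, whose capture of mitochondrial transcripts was not measured. Of 11 genes of the mitochondrial stress response, such as the chaperone genes hsp-6 and hsp-60, 0 passed with edgeR or DESeq2, with a median of -0.03. The 2 at an unadjusted p under 0.05 were both higher, dve-1 at 0.35 ± 0.104 and haf-1 at 0.51 ± 0.196 (log2 fold change and SE, edgeR adjusted p = 0.127 and 0.181). Of all genes tested 20.6% had such an unadjusted p at 10000 ng/g, and DESeq2 called 6.25% of all genes it tested. Of 70 mitochondrial ribosomal protein genes 64 were negative at 10000 ng/g with a median of -0.19, and 0 passed with edgeR or DESeq2, with 5 at an unadjusted p under 0.05. Cytosolic ribosomal protein genes were negative in 78 of 78 cases with a median of -0.25, and 0 passed with edgeR and 1 with DESeq2, with 4 at an unadjusted p under 0.05.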

How the data were processed

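Members, gene lists and tests were chosen with earlier results of these data known. The submitters' processing notes name the aligner HISAT2 (2.2.1), the counter featureCounts (2.0.6), CASAVA and DESeq2 (1.42.0). The strand setting, the handling of multiply matching reads and the build are not given in those notes. The authors deposited raw read counts per gene and FPKM values per gene length for the same 12 libraries, and the 2 tables agreed up to 1 scaling constant per library. Coordinates refer to WBcel235 (Ensembl release 115), which 46926 of 46987 features (99.87%) matched. Counts were tested with edgeR 4.0.16 in R 4.3.3 (two-sided quasi-likelihood test, TMM factors, low-count filter, 16665 genes, 1 fit over 12 libraries with 8 residual degrees of freedom). P-values were adjusted by Benjamini-Hochberg over all genes tested, threshold 0.05, and SE is the size of the fold change (log2) over the root of the F statistic. CPM use TMM-scaled library sizes, and log2 CPM a prior count of 2. The steps were tested on simulated counts. Named genes were those past the threshold, those with the smallest unadjusted p and the highest and lowest FPKM per complex, genes with paralogs in the list, the largest differences per dose, filtered genes and 5 genes known from mutants. Replicates differed beyond counting noise (lowest chi-square per degree of freedom 12.6), so none were merged. Alternatives were RLE and upper-quartile factors, no filter, a replicate block, fits of only the groups compared, DESeq2 1.42.0, leaving out each library, and members without overlapping genes. A fit without replicates 1 and 2 at 400 ng/g was added after seeing the data. No sequence tables were used here, so no sequences are shown.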

Additional observations from a re-analysis of the deposited data

How the results depend on the processing

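At 10000 ng/g the count of respiratory chain genes past the threshold was 1 with RLE or upper-quartile factors, without the filter and among the 28 members with no overlapping gene. It was 0 with the replicate block (edgeR adjusted p of nduf-2.2 0.0824), 3 in a fit of only the groups compared, 3 with DESeq2, and 3 without replicates 1 and 2 at 400 ng/g. Over the 12 fits that each left out 1 library it ran from 0 to 3. The count of 3 there came without replicate 1 at 400 ng/g, where 3.26% of all genes passed. At 400 ng/g the count was 1 with DESeq2 and from 0 to 1 when leaving out 1 library, the call of sdha-2 coming without replicate 3 at 2000 ng/g. For any dose against the control it was 3 with DESeq2 and from 0 to 1 when leaving out 1 library (nduf-2.2, without replicate 1 at 400 ng/g). At 2000 ng/g and between 10000 and 400 ng/g it was 0 in all alternatives run. Replicate numbers did not pair the samples: over 18 pairs with the same number, correlations of deviations ran from -0.47 to 0.339, so the block is a shared number only. The median of the members moved to 0.09 without control replicate 1 and to -0.11 without control replicate 3 at 10000 ng/g, and to 0.14 and -0.06 at 2000 ng/g.

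Some single genes that did not pass changed sign, including ucr-2.2, sdha-1 and cyc-1 at 400 ng/g. For mev-1 at 2000 ng/g the log2 fold change was 0.0064 with RLE factors, 0.0031 in a fit of only the groups compared and 0.0063 with DESeq2. When leaving out 1 library at 10000 ng/g, gas-1 ran from -0.048 to 0.23, nuo-6 from -0.23 to 0.085, mev-1 from -0.020 to 0.13, cyc-1 from -0.12 to 0.057, isp-1 from -0.087 to 0.058 and ucr-2.2 from -0.11 to 0.28. At 2000 ng/g nuo-6 ran from -0.12 to 0.18, mev-1 from -0.062 to 0.081, cyc-1 from -0.037 to 0.14 and isp-1 from -0.041 to 0.097. At 400 ng/g nuo-6 ran from -0.076 to 0.22, mev-1 from -0.044 to 0.15, sdha-1 from -0.017 to 0.27, cyc-1 from -0.015 to 0.24, ucr-2.2 from -0.011 to 0.47, cox-16 from -0.20 to 0.060 and cox-19 from -0.10 to 0.10. The cause was not tested for any of these changes. Counts limit cox-16, cox-17, nuo-3 and cox-14 most.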
